A study of Sus scrofa with 6 samples.

Results

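The genes described here encode the protein subunits of the mitochondrial ribosome. They were taken by name from a table of FPKM values (fragments per kilobase of exon, scaled to the mapped reads of the library) for the abdominal aorta of miniature pigs, as the protein-coding genes whose symbol begins with MRPL or MRPS and a digit. This gave 65 genes, 39 with an MRPL name and 26 with an MRPS name, of 30477 genes in the table and 20288 protein-coding genes. All 65 had a mean FPKM of at least 0.1, the limit for testing, which left 15384 genes in all. The NC group was male Wuzhishan pigs on a normal chow diet and the HFCF group was male Wuzhishan pigs on chow with added shortening, egg yolk powder, cholesterol and fructose, each fed for 6 months, with 3 libraries a group. The labels give an age of 3 to 4 months, and the methods of the study give an older age at purchase. The study describes no pooling, so each library was read as 1 pig, and p-values measure the spread between these libraries.

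Mitochondria keep a small genome of their own, and the mitochondrial ribosome translates its messages, all of which encode subunits of the respiratory chain and the ATP synthase. The RNA of this ribosome comes from mitochondrial DNA, whereas its proteins are encoded in the nucleus, made by cytosolic ribosomes and imported. The large subunit joins the amino acids and holds the exit tunnel, and the small subunit decodes the message. Many of the proteins have bacterial counterparts, and the others are particular to mitochondria. The aorta is built mainly of smooth muscle cells, and plaques of the atherosclerotic aorta also hold macrophages.

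FPKM values summed to between 272207 and 287141 in the NC libraries and to between 330222 and 338690 in the HFCF libraries, so a gene can have a higher FPKM in the HFCF group without a higher rank among genes. Over all tested genes the log2 fold change had a median of 0.32, not 0. Each comparison was therefore made with the deposited values and again with each library centred on the median of all tested genes. Smooth muscle markers, which define the sampled vessel wall, summed to 15996 FPKM or more in every NC pig (highest 22763) and to 12941 or less in every HFCF pig (lowest 8041), and 6 of 8 were lower by limma's test. Macrophage markers summed to 73.9 FPKM or less in every NC pig (lowest 60.1) and to 889 or more in every HFCF pig (highest 2244), with 10 of 10 higher. Summed markers of T cells (0.545 to 0.872 FPKM in the NC group, 2.70 to 10.47 in the HFCF group), of B and plasma cells (6.91 to 11.4, then 35.9 to 52.5) and of neutrophils (0.474 to 2.21, then 5.40 to 94.3) were also higher in every HFCF pig, most so in HFCF pig 1, and 3 of 6, 1 of 5 and 1 of 3 of these markers passed the test. No marker of these lists was at 0 in every library. In whole tissue, fewer cells of a type and less RNA per cell cannot be told apart, and the part of cell makeup in the values below was not tested.

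The change across the family was uneven. With the deposited values, every gene that passed the test was higher in the HFCF group, and after centring a few were lower. Of the 65 genes, 29 were higher and 0 lower at an adjusted p under 0.05 (limma on log2(FPKM + 0.1), Benjamini-Hochberg over all tested genes), which is 44.6% of them, beside 22.8% of all tested genes higher and 6.16% lower. At an unadjusted p under 0.05, 1 gene was lower, MRPL37. After centring, 14 were higher and 4 lower, or 21.5% and 6.15%, beside 13.1% and 12.6% of all tested genes. The log2 fold change had a median of 0.56 over the 65 genes and 0.32 over all tested genes. It was above 0 in 57 of the 65 genes, beside 10114 of the 15384 tested genes. In the 65 genes it was above the median of all genes in 47, and ran from -0.47 to 3.77. All 3 HFCF values lay above all 3 NC values in 40 genes, beside 36.1% of tested genes, and below them in 2, beside 12.1%. With centred values these numbers were 24 and 6, beside 23.5% and 23.1%. The thresholds of the study, a ratio of group means above 2 or below its reciprocal with an unadjusted p under 0.05, were passed by 16 genes that were higher and 0 that were lower, beside 20.7% and 4.82% of tested genes. When the values were rescaled to TPM (each library scaled to the same total), 16 genes were higher and 2 lower. Of the 17531 genes then tested, 2146 were higher and 1539 lower. Leaving out HFCF pig 1 raised the gap between the median of the 65 genes and that of all genes from 0.24 to 0.37. The count of 29 fell to 18 without NC pig 1, to 18 without NC pig 2, to 17 without HFCF pig 2 and to 18 without HFCF pig 3. Over all tested genes, the count of 3505 higher fell in the same fits to 1979, 2341, 2346 and 2815. The count of 14 after centring fell to 9 without NC pig 1, to 9 without NC pig 2 and to 8 without HFCF pig 3. Over all tested genes, the centred count of 2016 higher fell in these fits to 1007, 1215 and 1569.

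**Figure D1:**
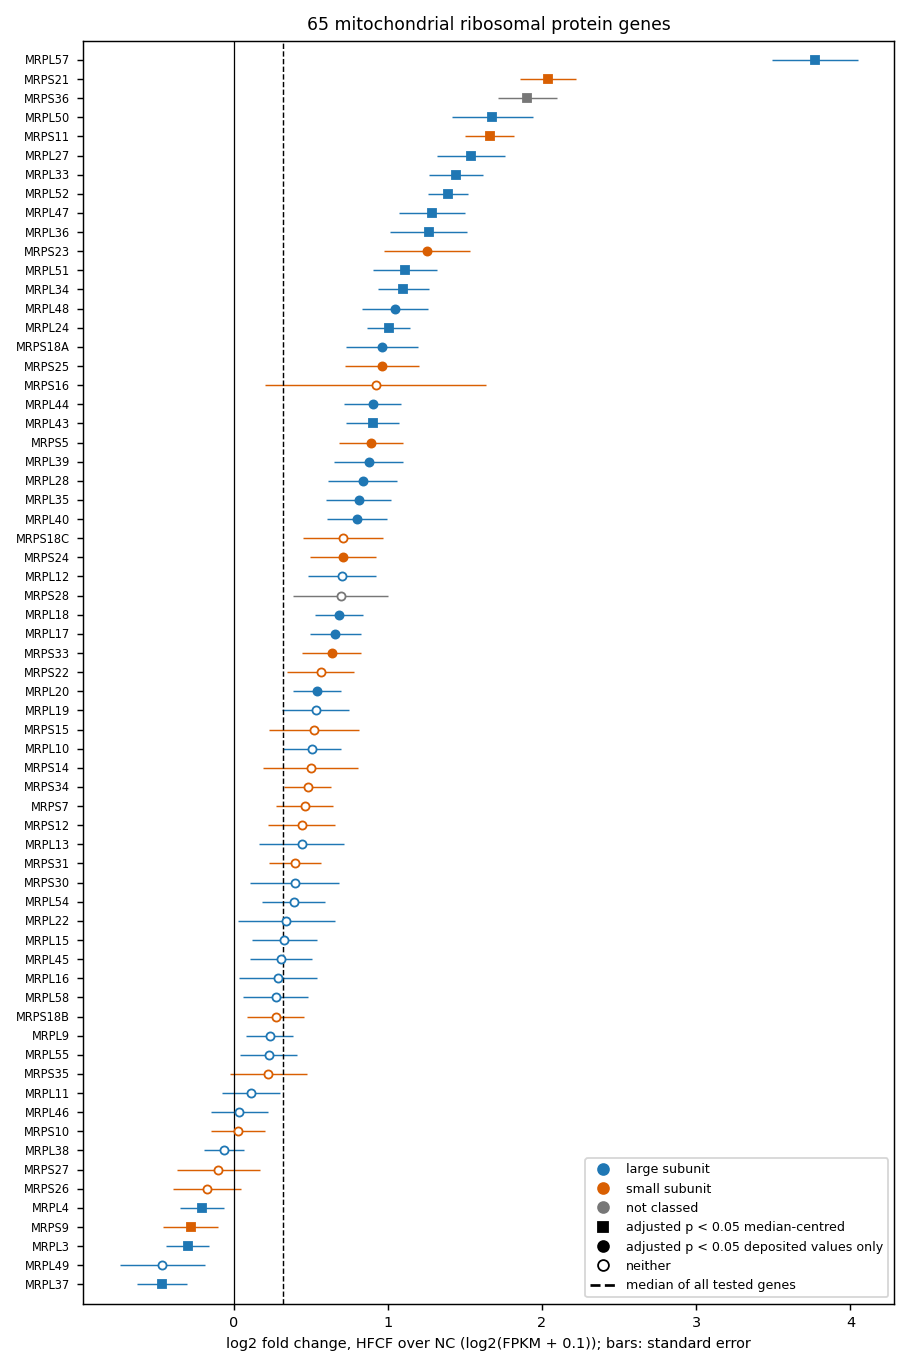
Log2 fold change of each of the 65 genes (HFCF over NC, log2(FPKM + 0.1), n = 3 pigs a group) with its standard error from limma. Colour gives the subunit and the symbol gives the test passed, and the dashed line marks the median of all tested genes at 0.32. MRPL57 stands apart at 3.77, and 8 genes lie below 0.

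The lists used here place 41 of the genes in the large subunit and 22 in the small subunit. They leave MRPS28 and MRPS36 unclassed, so these genes did not enter the counts, medians and sums of the subunits. In the large subunit 21 of 41 were higher, with a median log2 fold change of 0.66, and 11 were higher and 3 lower after centring. In the small subunit 7 of 22 were higher, with a median of 0.51, and 2 were higher and 1 lower after centring. Of all tested genes, 22.8% were higher and 6.16% lower with the deposited values, and 13.1% were higher and 12.6% lower after centring. The difference between the subunits was not tested. Of the 35 proteins with a bacterial counterpart, 15 were higher (median 0.54), and of the 28 that are particular to mitochondria, 13 were higher (median 0.52). Summed FPKM of the large-subunit genes over that of the small-subunit genes was 1.99, 1.76 and 2.06 in the NC pigs against 2.10, 2.21 and 2.13 in the HFCF pigs, without overlap. These sums weigh abundant genes most. MRPS26, which passed neither test, gave 51.9, 60.03 and 43.0 FPKM of small-subunit sums of 198, 227 and 180 in the NC pigs. In the HFCF pigs it gave 33.8, 51.8 and 53.2 of 250, 280 and 307. The ratio therefore need not reflect a shift shared by the genes of a subunit.

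MRPL57, a small large-subunit protein with no bacterial counterpart, had the widest gap. Its FPKM was 1.87, 0.983 and 0.980 in the NC pigs against 20.9, 16.5 and 16.7 in the HFCF pigs. It passed from the low end of the family to values near those of MRPL11 and MRPS7, with a ratio of means of 14.1 and a log2 fold change of 3.77 ± 0.28 (SE, n = 3 a group, limma adjusted p = 0.000602). After centring the log2 difference was 3.43, with an adjusted p of 0.0013 by limma.

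The other large-subunit proteins that are particular to mitochondria and passed both tests changed less. MRPL50 had an FPKM of 0.681, 1.014 and 1.06 in the NC pigs against 2.74, 2.88 and 3.80 in the HFCF pigs. MRPL52 had 10.17, 9.55 and 10.6 against 25.5, 26.6 and 27.8, and its narrow spread within each group gave it one of the smallest standard errors of the family, with a log2 fold change of 1.39 ± 0.13 (SE, n = 3 a group). MRPL51 had 5.17, 7.503 and 7.34 against 12.4, 16.6 and 14.3. In each of the 3 genes the groups did not overlap, and the log2 fold changes of MRPL50 and MRPL51 were 1.68 and 1.11. After centring, MRPL51 kept its call in 9 of 14 alternatives. MRPL43 also passed both tests, at 0.90 and with a limma adjusted p of 0.0497 after centring, close to the threshold, and it kept that call in 4 of 14 alternatives.

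Several large-subunit proteins with bacterial counterparts were higher in both fits. MRPL27, whose bacterial counterpart reaches into the peptidyl transferase centre, had an FPKM of 4.00, 4.16 and 5.94 in the NC pigs against 11.0, 15.0 and 15.3 in the HFCF pigs, a log2 fold change of 1.54. MRPL33, MRPL34 and MRPL36 are counterparts of some of the smallest bacterial ribosomal proteins. MRPL33 had 11.7, 13.0 and 9.98 against 26.4, 33.6 and 34.8, MRPL34 had 14.4, 13.0 and 18.5 against 32.6, 30.7 and 34.5, and MRPL36 had 1.95, 1.195 and 1.66 against 3.29, 4.38 and 4.19. The lowest HFCF pig exceeded the highest NC pig in all 3, and their log2 fold changes were 1.44, 1.10 and 1.27. MRPL36 stood nearest the threshold of these, with a limma adjusted p of 0.041 after centring. After centring it kept its call in 7 of 14 alternatives and MRPL34 in 11, and with the deposited values MRPL36 lost it after quantile normalization.

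The exit tunnel, where the new chain leaves the large subunit, is lined near its mouth by MRPL22, MRPL23, MRPL24 and MRPL47, with MRPL17 and MRPL45 beside it. This grouping was made after the values had been seen. MRPL47 had an FPKM of 1.011, 1.22 and 1.02 in the NC pigs against 2.48, 2.88 and 2.97 in the HFCF pigs, a log2 fold change of 1.28. MRPL24 had 16.1, 14.6 and 14.5 against 27.6, 29.9 and 33.6, a ratio of means of 2.02. Both passed both tests, but after centring each kept its call in only 9 of 14 alternatives, and with the deposited values MRPL47 kept it in 13. MRPL17 was higher with the deposited values alone, at 0.66. MRPL22 and MRPL45, which anchors the ribosome to the inner membrane, had log2 fold changes of 0.34 and 0.30 and overlapping groups, and passed neither test.

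The stalk recruits translation factors, and its members, also grouped after the values had been seen, passed neither test. MRPL12, the multi-copy stalk protein, had the highest mean FPKM of the family. Its FPKM was 59.3, 62.5 and 42.4 in the NC pigs against 68.4, 98.9 and 100.7 in the HFCF pigs. The groups did not overlap, and the log2 fold change of 0.70 ± 0.22 (SE, n = 3 a group) did not pass the test (limma adjusted p = 0.0516). MRPL10 and MRPL11, at the base of the stalk, had log2 fold changes of 0.51 and 0.11.

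In the small subunit, MRPS21 and MRPS11 were higher in both fits. MRPS21, the counterpart of the small bacterial protein S21, had an FPKM of 9.26, 10.3 and 10.1 in the NC pigs against 32.9, 49.6 and 42.0 in the HFCF pigs. MRPS11, the counterpart of a platform protein, had 4.72, 3.92 and 4.00 against 12.1, 14.3 and 14.1. The lowest HFCF value of MRPS21 was over 3 times its highest NC value, and neither gene's groups overlapped. Their log2 fold changes were 2.04 ± 0.18 and 1.66 ± 0.16 (SE, n = 3 a group), with limma adjusted p of 0.000973 and 0.00127. None of the 10 small-subunit proteins particular to mitochondria passed the test after centring, beside 13.1% higher and 12.6% lower of all tested genes. With the deposited values MRPS23, MRPS25 and MRPS33 were higher, beside 22.8% of all tested genes. MRPS23 had a limma adjusted p of 0.0583 after centring and passed the centred test in 4 of 14 alternatives.

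MRPS36 carries a ribosomal name but is now known as a component of the 2-oxoglutarate dehydrogenase complex of the citric acid cycle. Its FPKM was 1.76, 1.77 and 2.29 in the NC pigs against 6.78, 8.15 and 7.56 in the HFCF pigs, without overlap, a log2 fold change of 1.905 (limma adjusted p = 0.00144). Without it, the median log2 fold change of the family was 0.55.

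**Figure D2:**
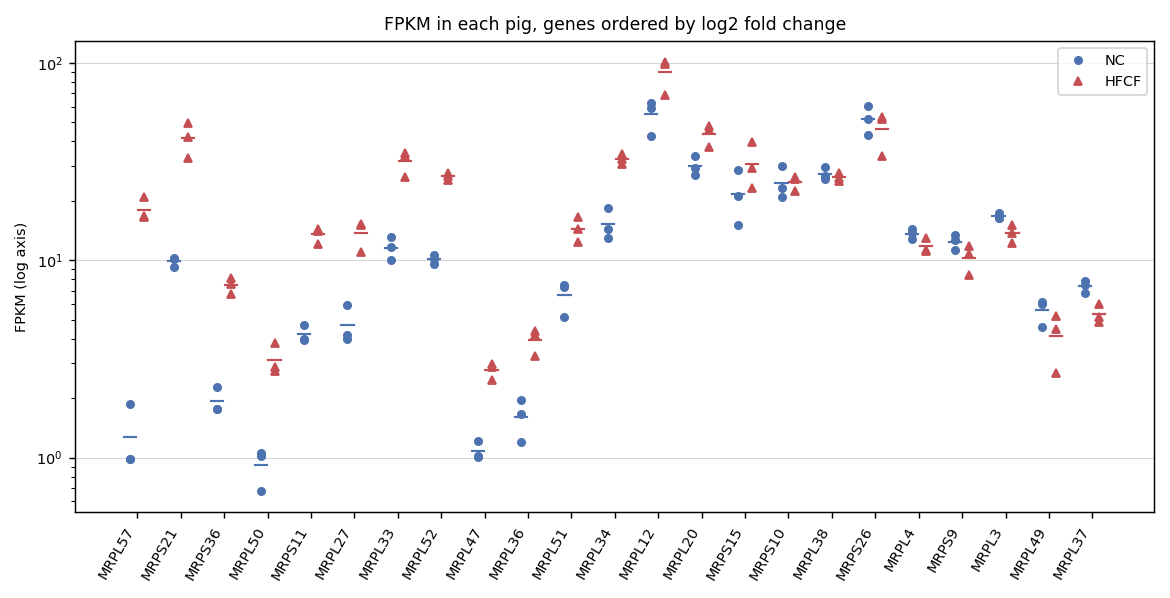
FPKM on a log axis for 23 named genes, with 1 point for each of the 3 NC and 3 HFCF pigs and a bar at each group mean, ordered by log2 fold change. The groups are apart from MRPL57 to MRPL20, meet in the genes with small changes such as MRPS10 and MRPL38, and part again, with the HFCF pigs lower, in MRPL3 and MRPL37.

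Another 15 genes were higher with the deposited values alone, with log2 fold changes from 0.54 to 1.25. In the large subunit these were MRPL17, MRPL18, MRPL20, MRPL28, MRPL35, MRPL39, MRPL40, MRPL44, MRPL48 and MRPS18A, which despite its name sits in the large subunit, and in the small subunit MRPS5, MRPS23, MRPS24, MRPS25 and MRPS33. MRPL20, whose bacterial counterpart is needed early in assembly of the large subunit, was the third most abundant of the family by mean FPKM and had 33.5, 29.2 and 27.0 in the NC pigs against 37.6, 45.5 and 47.8 in the HFCF pigs. Its log2 fold change of 0.54 was the smallest of those that passed, its limma adjusted p was 0.0395, and it kept the call in 4 of 14 alternatives. None of these 15 genes kept its call in every alternative.

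A further 4 genes were lower once each library was centred on all genes, and none of these passed with the deposited values. MRPL37, a large-subunit protein particular to mitochondria, had an FPKM of 6.84, 7.82 and 7.51 in the NC pigs against 4.87, 5.16 and 5.97 in the HFCF pigs. MRPL3, which lies near the peptidyl transferase centre, had 17.4, 16.4 and 16.4 against 13.7, 12.2 and 15.0. In both, all HFCF pigs were below all NC pigs. MRPL4 had 12.8, 13.7 and 14.4 against 11.2, 13.0 and 11.3, and MRPS9, of the small subunit, had 11.3, 13.3 and 12.7 against 8.38, 11.8 and 10.8. In these a single HFCF value lay inside the NC range. The centred log2 differences were -0.80, -0.64, -0.54 and -0.62, with limma adjusted p of 0.0139, 0.0226, 0.029 and 0.0422. With the deposited values the log2 fold changes were -0.47, -0.30, -0.20 and -0.28. Leaving out any single library left between 1 and 2 genes lower after centring, and MRPL37 was called in each case. Over 14 alternatives MRPL3 kept its centred call in 8, and MRPL4 and MRPS9 in 3 each.

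The other 32 genes passed neither test, 28 with a log2 fold change above 0 and 4 below. Several of them were abundant. MRPS26 had an FPKM of 51.9, 60.03 and 43.0 in the NC pigs against 33.8, 51.8 and 53.2 in the HFCF pigs. MRPL38 had 26.8, 29.7 and 25.9 against 25.04, 26.1 and 27.7, and MRPS10 had 23.2, 29.9 and 20.8 against 26.5, 22.4 and 25.8. In these 3 genes the groups lay within or across each other with the deposited values, with log2 fold changes of -0.17, -0.06 and 0.03. After centring the log2 differences were -0.51, -0.40 and -0.31, and in MRPL38 all HFCF pigs were then below all NC pigs. MRPS15, the counterpart of a protein that binds ribosomal RNA directly, had 21.2, 28.7 and 15.0 against 29.3, 23.1 and 39.9, overlapping groups with a log2 fold change of 0.52. MRPL49 had 6.11, 4.58 and 6.02 against 2.70, 4.47 and 5.22, a log2 fold change of -0.46 with a standard error of 0.28. After centring its groups did not overlap, with a log2 difference of -0.80 and a limma adjusted p of 0.0845. The direction for MRPS10 turned to -0.23 after rescaling to TPM, and that for MRPS26 to 0.04 without HFCF pig 1.

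Levels differed widely within the family. Group means ran from 0.499 to 54.7 FPKM in the NC group, with a median of 6.06, and from 0.686 to 89.3 in the HFCF group, with a median of 9.70. MRPS30, which sits in the large subunit, was lowest in both groups and MRPL12 highest in both. The number of genes with a mean of at least 10 FPKM was 21 in the NC group and 32 in the HFCF group, and the number under 2 FPKM was 15 and 5. The change bore little relation to the level. Across the 65 genes, which share their libraries, the mean log2 level and the log2 fold change had a Spearman's rho of -0.15 and a Pearson's r of -0.06, given as a description. The coefficient of variation among the 3 pigs of a group had a median of 14.6% in the NC group and 15.3% in the HFCF group, beside 22.4% and 23.8% over all tested genes.

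The HFCF pigs were not alike. Summed FPKM of the 65 genes was 595, 634 and 557 in the NC pigs against 787, 913 and 973 in the HFCF pigs, or 0.213%, 0.221% and 0.205% against 0.232%, 0.272% and 0.295% of each library's total. HFCF pig 1 was the lowest of its group in 48 of the 65 genes, and HFCF pig 3 the highest in 42. The same counts were not made over all tested genes. The median deviation of the 65 genes from their gene means, after centring, was -0.08, -0.16 and -0.16 in the NC pigs against -0.02, 0.15 and 0.32 in the HFCF pigs. HFCF pig 1 also had the highest sum of macrophage markers of the HFCF pigs, 2244 FPKM beside 956 and 889, and of red blood cell markers, 2883 FPKM beside 85.6 and 95.5. It had the lowest sum of smooth muscle markers, 8041 FPKM beside 9567 and 12941. The part of these markers in the order of the pigs was not tested.

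**Figure D3:**
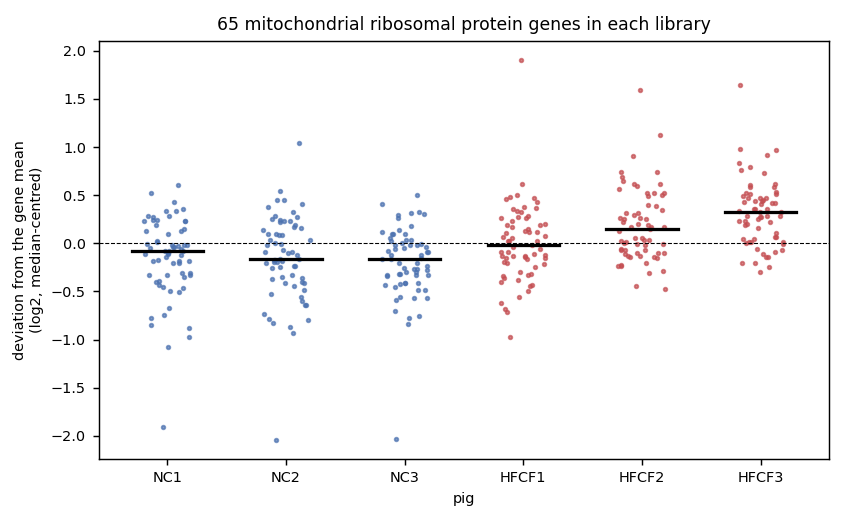
Deviation of each of the 65 genes from its mean over the 6 libraries (log2, each library centred on all tested genes), with 1 point a gene and a bar at the median of each library. The NC medians lie between -0.16 and -0.08, and the HFCF medians are -0.02 in pig 1, 0.15 in pig 2 and 0.32 in pig 3.

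Some proteins of the mitochondrial ribosome were not reached by the name rule. Of 79 family symbols looked for, 65 were found by name, 10 stood under a gene identifier whose name was looked up, and 4 were not analysed here. Of those 10, 9 were tested and 5 were higher with the deposited values, with a median log2 fold change of 0.85. Over all tested genes 22.8% were higher, with a median of 0.32. The gene described as MRPL23, at the tunnel mouth, was the only 1 of them that was higher after centring. Its FPKM was 6.56, 5.98 and 4.68 in the NC pigs against 11.8, 12.8 and 13.2 in the HFCF pigs. With these genes added, the median log2 fold change of the family was 0.63. Of 5 proteins of the ribosome with unrelated names, CHCHD1 and DAP3 were higher. CHCHD1 had an FPKM of 2.72, 3.38 and 2.95 in the NC pigs against 8.26, 6.87 and 8.58 in the HFCF pigs, a log2 fold change of 1.36 (limma adjusted p = 0.00319). DAP3, a GTP-binding protein of the small subunit, had 4.97, 5.10 and 5.64 against 7.72, 7.25 and 7.60, without overlap, a log2 fold change of 0.52 that passed with the deposited values alone. AURKAIP1, PTCD3 and GADD45GIP1 had log2 fold changes of 0.28, 0.06 and 0.67 and overlapping groups.

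Of 22 assembly factors of the mitochondrial ribosome tested, 5 were higher and 1 lower with the deposited values, close to the 22.8% and 6.16% of all tested genes, with a median log2 fold change of 0.38. After centring 3 were higher and 4 lower, beside 13.1% and 12.6% of all tested genes. MTERF3, a member of a family of mitochondrial transcription terminators, rose from a mean of 1.99 ± 0.156 to 7.58 ± 0.373 FPKM (SD, n = 3), a log2 fold change of 1.88, and GTPBP10, a GTPase of large-subunit assembly, rose by 1.10 on the log2 scale. NSUN4, which methylates the RNA of the small subunit, fell from 10.3 ± 0.797 to 5.71 ± 0.745 FPKM (SD, n = 3), a log2 fold change of -0.85. Of 17 translation factors tested, 6 were higher and 0 lower, with a median of 0.81, and 3 were higher after centring. SLIRP and LRPPRC, partners that stabilise mitochondrial messages, had log2 fold changes of 2.50 and 1.11, LRPPRC passing with the deposited values alone, and GFM2, which recycles the ribosome, had 1.97. TUFM, the elongation factor that brings in aminoacyl-tRNA, had 27.0 ± 3.22 and 24.4 ± 5.60 FPKM (SD, n = 3) and passed no test.

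The mitochondrial lists of this paragraph held about as many higher genes as the 22.8% of all tested genes, or fewer. Of 10 genes of mitochondrial DNA transcription and maintenance, 2 were higher with the deposited values (median 0.50), as were 2 of 12 of mitochondrial RNA processing (median 0.27) and 2 of 8 of protein import (median 0.39). Of 8 regulators of nuclear genes for mitochondria, GABPB1 alone was higher with the deposited values, at 0.85, while MYC and PPRC1 were lower after centring alone, and NRF1 and GABPA had log2 fold changes of 0.05 and 0.28 and passed neither test. Of 8 genes used as marks of mitochondrial mass, the outer-membrane channels VDAC2 and VDAC3 were lower, at -0.86 and -0.50, and the matrix chaperonins HSPE1 and HSPD1 were higher, at 2.12 and 0.49, HSPD1 with the deposited values alone. After centring, 4 of the 8 genes were lower and 1 higher, beside 12.6% and 13.1% of all tested genes. CS and VDAC1 were lower after centring alone, with centred log2 differences of -0.81 and -0.43. The median log2 fold change of these 8 genes with the deposited values was -0.04.

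Most of the messages that the mitochondrial ribosome translates were higher in the HFCF group. Of the 13 protein-coding genes of mitochondrial DNA, 11 were higher with the deposited values and 10 after centring. Their changes were uneven, with a median log2 fold change of 1.41 and a range from 0.79 in COX1 to 4.24 in ND3. COX1 and ND4L had overlapping groups and passed neither test, and CYTB passed with the deposited values alone. Their share of all FPKM was 4.55%, 6.78% and 4.57% in the NC pigs against 13.2%, 13.0% and 8.79% in the HFCF pigs, without overlap. HFCF pig 3, highest in most ribosomal protein genes, had the lowest share of its group. Of 65 nuclear genes of the respiratory chain and the ATP synthase, 38 were higher and 2 lower with the deposited values (median 0.90). After centring, 31 of them were higher and 8 lower. Of 50 cytosolic ribosomal protein genes tested, 35 were higher and 0 lower (median 0.98), and 26 were higher and 0 lower after centring. Over all tested genes, 22.8% were higher and 6.16% lower with the deposited values, and 13.1% and 12.6% after centring. The differences between these lists and the mitochondrial ribosomal proteins were not tested.

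**Figure D4:**
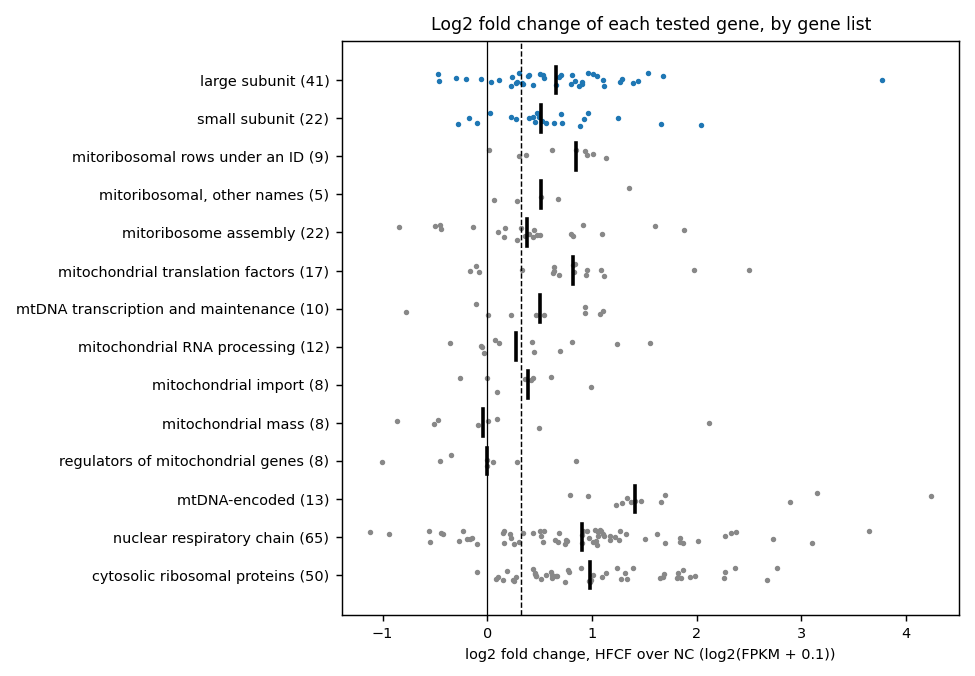
Log2 fold change (HFCF over NC, log2(FPKM + 0.1)) of every tested gene of the subunits (blue) and of the related lists (grey), with the number tested in brackets. The nuclear respiratory chain list includes genes of the ATP synthase. A black bar marks each list's median, from -0.04 for mitochondrial mass to 1.41 for the genes of mitochondrial DNA, and the dashed line marks the median of all tested genes.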

How the data were processed

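RNA of the abdominal aorta was sequenced as paired-end Illumina reads. The authors trimmed with cutadapt 1.9, aligned to the pig genome with HISAT2, assembled and quantified with StringTie, and FPKM values of 30477 genes were taken as the authors deposited them. The methods name an older genome build than the annotation at hand, and coordinates are left out. Read depth is not known. Relative depths estimated from the steps between low FPKM values were 1 to 1.37. A value of 0.0001 was read as 0.

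Values were compared as log2(FPKM + 0.1), a scale that understates changes of low genes, in limma 3.58.1 (R 4.3.3, trended eBayes), where genes entered if their FPKM averaged at least 0.1 and p-values were adjusted by Benjamini-Hochberg. For the centred fit, the median over tested genes of the log2 value minus the gene mean was subtracted from each library. The scripts were checked on simulated data. The members and lists were chosen with earlier results of these data known. Named were at most 12 members in each direction past the centred test, the 8 with the highest mean FPKM, the 5 with the largest and the 5 with the smallest change, and proteins of the ribosome with other names. MRPL24, MRPL43, the genes grouped by place in the ribosome and those of the other lists were named after their values had been seen. Alternatives were pseudocounts of 1 and 0.01, other filters, TPM, quantile normalization, untrended eBayes, replicate number as a block, omission of each library, other thresholds, the family with 10 more genes and the family without MRPS36, the last pair chosen after seeing the data.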

Additional observations from a re-analysis of the deposited data

How the results depend on the processing

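The count of 29 higher members with the deposited values was 16 after rescaling to TPM, 12 after quantile normalization and 17 with a replicate block, and the count of 0 lower members was 2 with TPM and 1 with quantile normalization. Over all tested genes, the 3505 of 15384 higher became 2146 of 17531 with TPM. They became 1748 with quantile normalization and 2232 with the block, both of 15384. The 948 lower of all tested genes became 1539, 1782 and 540 in these fits. The scalings and centring moved the median of all genes from 0.32 to between -0.07 and 0.07 on the log2 scale. The median of the members, 0.56, was then 0.32 with TPM and 0.25 with quantile normalization. Its distance from the median of all genes, 0.24, was 0.43 with no filter. After centring, the 4 lower members were 2 with a pseudocount of 1, 1 with no filter, 1 with quantile normalization, 2 without a variance trend and 1 with a replicate block. Over all tested genes, the 1931 lower after centring became 1765, 1255, 1646, 1603 and 1118 in these fits. With no filter, 21816 genes were tested. Leaving out 1 library gave 17 to 29 higher members with the deposited values, and 8 to 15 higher and 1 to 2 lower after centring. For all tested genes the ranges were 1979 to 2815 higher, then 1007 to 1569 higher and 830 to 1484 lower after centring. The 16 members past the thresholds of the study were 31 at a ratio above 1.5 and 11 after TPM. Of the members called, 12 of 29 kept the call in all 14 alternatives with the deposited values, and after centring 8 of 14 higher members and 1 of 4 lower members did, MRPL37. MRPS10 turned to -0.23 with TPM, to -0.12 with quantile normalization and below 0 in 4 fits that left out a library, whose range over all such fits was -0.086 to 0.174. MRPS26 turned to 0.04 without HFCF pig 1 (range -0.299 to 0.038), and MRPS15 after centring to -0.07 without NC pig 3 and -0.03 without HFCF pig 3 (range -0.067 to 0.386). The cause of these moves was not tested. The replicate numbers did not pair the pigs: correlations of same-numbered deviations were 0.02, -0.08 and -0.07. Read depth is not known, several of these genes are known to have processed copies elsewhere in mammalian genomes, and FPKM does not show how shared reads were divided.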

Other observations

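The file holds a pair of rows typed as ribosomal RNA of the mitochondrion, and which subunit each belongs to was not worked out here. ENSSSCG00000018061 had an FPKM of 0.686, 0.378 and 0.295 in the NC pigs against 205.7, 190.2 and 140.7 in the HFCF pigs. ENSSSCG00000018063 had 372, 185 and 113 against 130.5, 101.0 and 110.1. The groups were far apart in the former and NC pig 3 lay within the HFCF range in the latter.

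MRPS16, singled out after its values had been seen, varied most within a group. Its FPKM was 0.304, 3.24 and 1.49 in the NC pigs, a coefficient of variation of 88.1%, and 1.74, 2.70 and 2.71 in the HFCF pigs. TFAM, which packages mitochondrial DNA, was also noticed for its spread. Its FPKM was 3.03, 3.86 and 3.17 in the NC pigs against 5.91, 0.705 and 6.55 in the HFCF pigs, so HFCF pig 2 lay below all NC pigs and the other two lay above them.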
